A study of Mus musculus with 13 samples.

Results

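Cycling fibroblasts were the fibroblasts of the mouse mammary stroma that held messenger RNA of the dividing cell, and 973 of 100523 fibroblasts in 13 single-cell libraries were counted as such (0.968%). A barcode was taken as a fibroblast when it had 500 to 7500 genes, at most 10% mitochondrial unique molecular identifiers (UMIs), at least 50 UMIs of Dcn, Lum and Col1a2 per 10000, and no UMI of Epcam, Pecam1, Rgs5, Sox10, Ptprc or Myog, genes of epithelium, endothelium, pericytes, Schwann cells, leukocytes and muscle. It was counted as cycling when at least 3 of the 5 genes Mki67, Top2a, Cenpf, Birc5 and Cdk1 were detected. The remaining 99550 fibroblasts were the non-cycling cells of the same libraries, and all libraries together held 120355 barcodes. Both tumour libraries contributed 625 of the cycling cells (64.2%).

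A dividing cell first licenses and copies its DNA in S phase, with the MCM helicase and the enzymes that supply nucleotides, and then condenses and separates its chromosomes in G2 and mitosis under Cdk1 with its cyclins. Entry into S phase is opened by D-type cyclins with Cdk4 and Cdk6 and held back by inhibitors of the INK4 family (Cdkn2a to Cdkn2d) and the CIP/KIP family (Cdkn1a to Cdkn1c), several of which are also used as marks of arrested or senescent cells. In the mammary gland, fibroblasts lie around the ducts and in the fat pad, and they range from Pi16 and Dpp4 expressing progenitor-like cells to matrix-depositing, fat-associated and contractile myofibroblastic cells.

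The study asked how fibroblast populations change over the development of the gland, under hormones and in cancer. Stromal cells from C57BL/6 wildtype females were sorted as negative for CD45, CD31, TER-119 and CD24, with 2 females pooled in each library, at puberty (4 weeks), in the adult (9 weeks), at day 14.5 of pregnancy, day 10 of lactation and day 4 of involution, with 1 library each. Further 9-week females carried pellets of placebo or of the progestin medroxyprogesterone acetate with oestrogen (MPA+E), with 2 libraries each. Fibroblasts of raGFP-Wnt1 mice (Pdgfra-GFP KI/+ MMTV-Wnt1 T/+, on a mixed C57BL/6 and FVB background) were sorted by their GFP from a tumour and from hyperplastic gland of the same mouse, in 2 mice of 45 and 17 weeks (mouse 1 and mouse 2). In these mice the Wnt1 transgene is driven by the MMTV promoter, which is active in the mammary epithelium, and GFP is made from 1 Pdgfra allele, so that the sort itself selects cells with an active Pdgfra gene. The tumour libraries thus differed from the wildtype libraries in genotype, strain, age and sort, and these cannot be told apart from the tumour itself.

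The 5 rule genes set the membership, and their levels are therefore a description. Mki67, a coat of mitotic chromosomes, stood at 264, 404 and 765 CPM (counts of UMIs scaled to a common total; lowest, median and highest of 10 libraries) in the summed cycling cells and at 0.195, 0.571 and 2.24 CPM in the non-cycling cells. Top2a, the topoisomerase that untangles sister chromatids, stood at 305, 560 and 844 against 0.585, 0.662 and 2.46 CPM. Cdk1, the kinase of mitotic entry, stood at 180, 205 and 250 against 0.204, 0.791 and 8.32 CPM, and the ranges of both kinds of cell were apart for each of these 3 genes. In the 13 libraries 239 fibroblasts had exactly 3 of the markers, 239 had 4 and 495 had 5, while 352 had 2 and 2790 had 1. Just inside the threshold, cells with 3 markers held 1298 CPM of a list of 26 G2 and mitosis genes that the rule did not use, and just outside it, cells with 2 markers held 489 CPM. Cells with 1 marker and with none held 86.5 and 64.7 CPM, so that the cells with 2 markers lay between both classes and not at the level of resting cells.

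The promoters of the rule genes are shown because they share letters that the rule could not use. The motif TTTGAA is the core of the cell cycle homology region, an element known from promoters of G2 and mitosis genes. It was searched on both strands from 250 bases before to 50 bases after each start site in RefSeq (GRCm38.p6), and each window was searched for each motif separately, so that sites could share bases. It was found in 4 of the 5 rule genes, and 1 site of each of these 4 follows with 30 bases in the direction of the gene and the motif in capitals.
Mki67 (chr7:135716478-135716507, minus strand): ttagcgccagaaTTTGAAccgccgttttgg
Top2a (chr11:99024351-99024380, minus strand): ctattggtccatTTTGAAgattctcccgcc
Cdk1 (chr10:69352966-69352995, minus strand): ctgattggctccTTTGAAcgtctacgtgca
Cenpf (chr1:189688067-189688096, minus strand): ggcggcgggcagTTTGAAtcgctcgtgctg
Of the G2 and mitosis list, 21 genes had a window and 15 of those windows held TTTGAA (71.4%), against 1 of 24 windows of the S phase list (4.17%) and 5878 of all 32851 windows (17.9%). The motif TTTGGCGC, known as a binding sequence of E2F factors, was held by 5 of the 24 S phase windows (20.8%), by 0 of the 21 G2 and mitosis windows and by 169 of all windows (0.514%). A site of each of 2 genes of the MCM helicase shows it, on the strand of the gene in Mcm6 and on the opposite strand in Mcm5.
Mcm6 (chr1:128359797-128359826, minus strand): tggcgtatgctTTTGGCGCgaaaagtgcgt
Mcm5 (chr8:75109349-75109378, plus strand): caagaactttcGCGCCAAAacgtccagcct
CCAAT, a further common promoter motif, was held by 76.2% of the G2 and mitosis windows, 58.3% of the S phase windows and 37.4% of all windows. These counts describe letters in a window and no binding was measured.

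Cycling cells were deeper than the non-cycling cells of their library in 10 of the 10 libraries with at least 10 of them, with 1.23 (involution) to 2.74 (placebo 1) times the median UMIs. Their median level of the fibroblast markers was 107 to 169 per 10000 UMIs, against 155 to 246 in non-cycling cells, and it was lower in each of the 10 libraries. Scrublet, which scores likeness to simulated doublets, gave a higher median score to cycling cells in each library, and between 0 and 26.5% of cycling cells lay in the expected share of doublets, against 3.83% to 11.5% of non-cycling cells. Removing those cells took out 114 cycling cells and is used below as an alternative. Of other cell types, the 5 epithelial markers summed to 0, 2.35 and 29.4 CPM (lowest, median, highest) in cycling cells and to 0.814, 1.59 and 40.6 CPM in non-cycling cells, and Krt5 was at 0 in the cycling cells of 8 libraries. The 4 pericyte markers summed to 11.3, 25.5 and 70.7 against 10.2, 17.4 and 44.0 CPM, highest in the adult. The 4 endothelial markers summed to 2.18 to 50.1 against 2.79 to 45.9 CPM, the 4 Schwann cell markers to 0 to 35.5 against 2.19 to 54.5 CPM, and the 5 macrophage markers to 0 to 3.76 against 1.09 to 3.71 CPM. The 3 haemoglobin genes of red cells summed to 0 to 30.6 CPM in cycling cells and to 0.144 to 135 CPM in non-cycling cells. The 3 muscle markers reached 142 CPM in the cycling cells of placebo 1, all of it Des with Myf5 and Acta1 at 0, against 2.8 CPM in its non-cycling cells. A pair of libraries shared at most 51 barcodes, and no barcode was a cycling cell in both.

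Puberty had the highest share of cycling fibroblasts among the wildtype libraries and lactation the lowest, and the tumours stood above them all. At puberty 102 of 7121 fibroblasts were cycling (1.43%, exact 95% interval 1.17 to 1.74%), and during pregnancy 83 of 11501 were (0.722%, 0.575 to 0.894%). In the adult the share was 0.259% (31 of 11951, 0.176 to 0.368%), in involution 0.203% (20 of 9863, 0.124 to 0.313%) and in lactation 0.0355% (3 of 8454, 0.00732 to 0.104%). These intervals cover counting error only, and each stage had 1 library, so that puberty against lactation gave a ratio of 40.4 (13.4 to 199) with no test. The neighbours adult and involution overlapped in their intervals. Because deeper cells show more markers, each cell was also thinned to 2000 UMIs before the markers were read. The shares were then 0.629% at puberty, 0.393% in pregnancy, 0.159% in the adult, 0.104% in involution and 0.024% in lactation, in the same order.

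**Figure D1:**
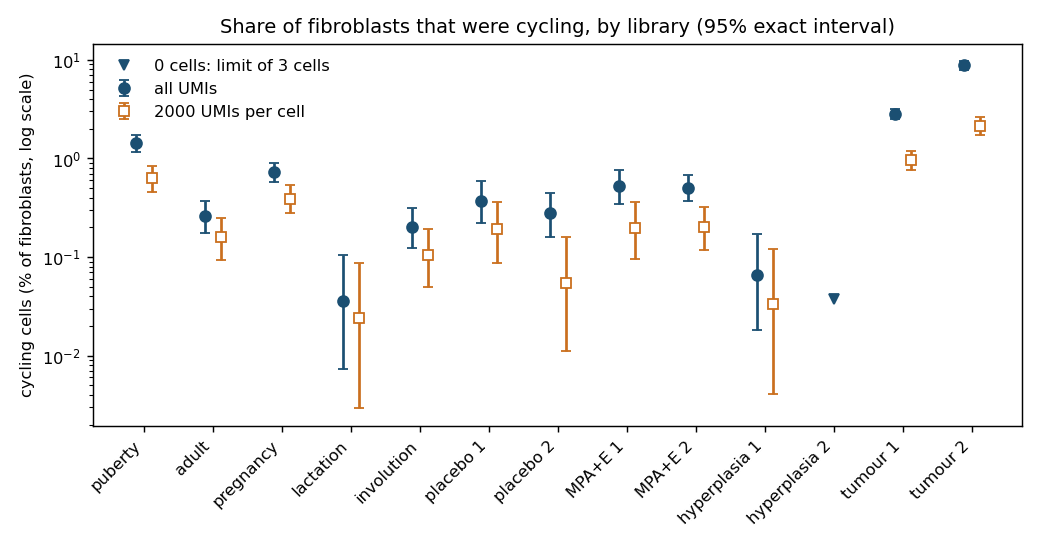
Share of fibroblasts that were cycling in each of the 13 libraries, in percent on a log scale, with the exact 95% interval; filled circles use all UMIs and open squares 2000 UMIs per cell, and the triangle is the limit of 3 cells for hyperplasia 2, which had 0. Both tumours lie highest, at 2.84% and 8.78%, and lactation and hyperplasia lie lowest.

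In raGFP-Wnt1 mice cycling fibroblasts were found almost entirely in the tumour and not in the hyperplastic gland. In mouse 1, 4 of 6044 fibroblasts of hyperplasia were cycling (0.0662%, 0.018 to 0.169%) and 253 of 8917 of the tumour (2.84%, 2.5 to 3.2%). In mouse 2, 0 of 7984 were cycling in hyperplasia, which allows a share of up to 0.0376%, and 372 of 4236 in the tumour (8.78%, 7.95 to 9.67%). The ratio was 42.9 (16.5 to 159) in mouse 1 and at least 234 in mouse 2, where hyperplasia was set to the limit of 3 cells. The tumours were higher by at least 6.64 in mean log2 share, in 2 of 2 mice. An exact permutation test gave p = 0.333 (two-sided), the smallest that 2 against 2 libraries can give. It rearranged the libraries freely and did not use that tumour and hyperplasia came from the same mouse. Thinned to 2000 UMIs, the tumours had 0.967% and 2.16% and hyperplasia 1 had 0.0336%. The intervals of the 2 tumours did not overlap.

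Under hormones the shares lay close together. Placebo libraries had 18 of 4843 (0.372%, 0.22 to 0.587%) and 16 of 5760 cycling fibroblasts (0.278%, 0.159 to 0.451%), and MPA+E libraries had 27 of 5152 (0.524%, 0.346 to 0.762%) and 44 of 8697 (0.506%, 0.368 to 0.679%). Both MPA+E libraries lay above both placebo libraries, by 0.68 in mean log2 share, with an exact permutation p of 0.333 (two-sided), again the smallest possible. The intervals of placebo 1 and both MPA+E libraries overlapped, and after thinning to 2000 UMIs the placebo libraries had 0.192% and 0.0544% and those treated with MPA+E had 0.198% and 0.201%. At 4000 UMIs the groups overlapped, with 0.244% and 0.151% for placebo and 0.205% and 0.324% for MPA+E (exact permutation p = 0.667).

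The cells chosen by 5 genes held RNA of the other genes of S phase and mitosis too. Since the rule chose the cells by genes of the cell cycle, the calls in these lists are given as a description, and nothing is read from them. For the genes that follow, UMIs were summed over the cycling and over the non-cycling cells of each of the 10 libraries with at least 10 cycling cells (8 wildtype and 2 tumour), and edgeR compared both sums within libraries over 12440 genes. Of these genes 2211 were higher in cycling cells (17.8%) and 2814 lower (22.6%) at an adjusted p under 0.05, with a median difference of -0.09 on the log2 scale over all genes. All 26 genes of the S phase list were among those higher, with a median log2 difference of 3.26, as were 24 of 25 tested G2 and mitosis genes (median 6.99) and 11 of 11 genes of chromatin and tubulin (median 3.06). Rrm2, the small subunit of ribonucleotide reductase, stood at 58.8, 84.7 and 123 CPM (lowest, median, highest of 10) in cycling and at 0.531, 0.944 and 2.78 CPM in non-cycling cells. Mcm5 of the replicative helicase stood at 11.3, 55.1 and 78.1 against 0.702, 1.89 and 3.67 CPM. Pcna, the clamp of DNA polymerase, was present in resting cells too, with 124, 280 and 387 against 32.4, 53.9 and 60.9 CPM. The mitotic cyclin Ccnb1 stood at 57.4, 130 and 171 against 0.0675, 0.21 and 0.703 CPM, and the mitotic kinase Plk1 at 32.8, 56.5 and 100 against 0.145, 0.248 and 0.365 CPM. None of these 5 ranges overlapped. The linker histone gene Hist1h1b (171, 339 and 678 against 0.0272, 0.27 and 0.43 CPM) and the tubulin-binding Stmn1 (344, 655 and 1350 against 3.88, 6.03 and 23 CPM) were apart as well.

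Pttg1, which encodes securin, was the 1 tested gene of the mitotic list not called over the 10 libraries. In wildtype libraries it stood at 11.3 to 84.5 CPM in cycling cells and at 32.5 to 65.1 CPM in non-cycling cells. In the tumours it stood at 62.6 against 18.6 CPM and at 64.1 against 15.6 CPM. There it was higher in cycling cells (1.88, adjusted p = 2.03e-11 in edgeR) and in wildtype libraries it did not pass (-0.24, adjusted p = 0.15), and the difference between both was 2.12 ± 0.22 (adjusted p = 3.58e-06), which held under every alternative. The level in non-cycling cells was thus lower in both tumours than in any wildtype library. The other calls of this difference in the S phase and mitotic lists went the opposite way, with 4 of 25 mitotic genes (Bub1, Ckap2, Cdca8 and Incenp) and 10 of 26 S phase genes lower in the tumours relative to wildtype libraries (0.932% of all genes) and median log2 differences of -1.04 and -0.89. Rrm2, for example, stood in cycling cells of the tumours at 84.7 and 90.6 CPM, within the 58.8 to 123 CPM of wildtype libraries, and in non-cycling cells at 2.78 and 2.75 CPM, above their 0.531 to 1.15 CPM (-1.74, lost without either tumour, -1.78 to -1.65). Each of these 14 calls was lost without at least 1 of the tumours. The non-cycling cells of the tumours also held rule genes more often. Cdk1 was detected in 2.85% and 13.8% of them, against 0.101% (adult) to 1.09% (MPA+E 1) in wildtype libraries. Cells just under the threshold of the rule thus weigh more in the non-cycling sums of the tumours. Their part in these lower differences was not tested.

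The balance of both lists differed among libraries. Pregnancy had the lowest summed S phase list relative to the G2 and mitosis list, with 1720 and 4326 CPM (ratio 0.398), and involution followed with 2035 and 4239 CPM (0.48). Both tumours stood close together at 0.52 and 0.542, with the lowest S phase levels of the 10 libraries (1496 and 1434 CPM). The libraries of placebo ranged from 0.572 to 1.18 and those of MPA+E from 0.703 to 0.792. Placebo 2 alone had more S phase than mitotic RNA (2452 and 2079 CPM), from 16 cells. No order among the groups is drawn, since the ratios of both placebo libraries lay further apart than those of any other pair of these libraries that leaves out placebo 2.

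**Figure D2:**
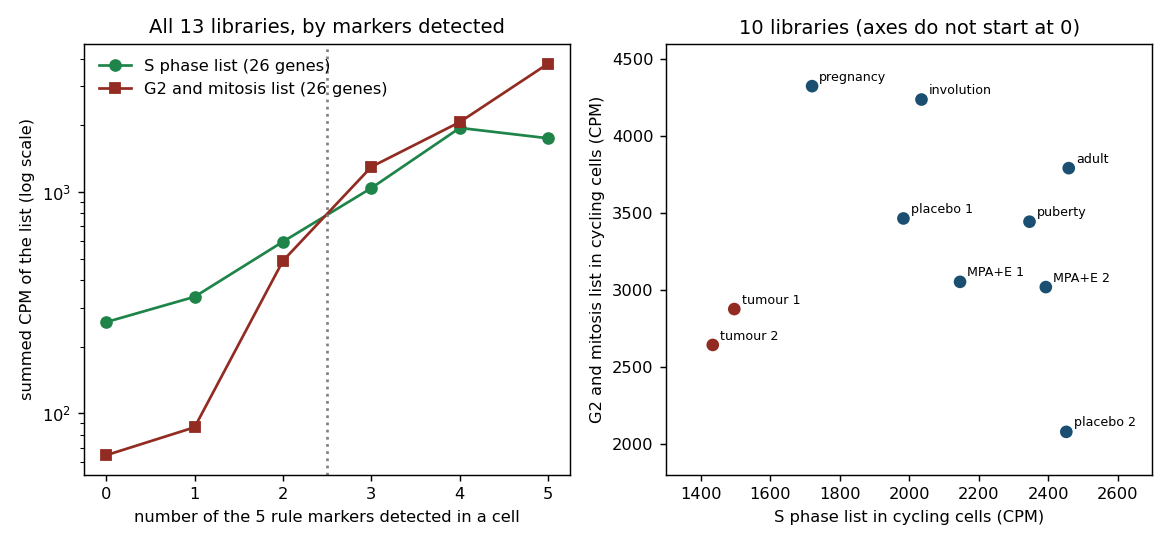
Left, summed CPM (log scale) of the S phase and the G2 and mitosis list in fibroblasts of all 13 libraries by the number of the 5 rule genes detected; the dotted line is the threshold of the rule, and the mitotic list goes from 64.7 CPM at 0 markers to 3797 CPM at 5. Right, both lists in the cycling cells of 10 libraries (blue wildtype, red tumour; axes in CPM, not from 0), with both tumours at the left and placebo 2 lowest.

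Outside the lists of the cell cycle, the rule for the largest rises named further mitotic genes. Among 1509 genes called higher with the same sign in all 10 libraries (12.1% of all tested), the largest differences were in Pbk, Depdc1a, Esco2, Pimreg, Ncapg, Kif2c, Ska1, Melk, Kif4 and Mxd3. Pbk, a mitotic kinase, stood at 65.5, 145 and 192 CPM against 0.014, 0.0881 and 0.43 CPM, a fitted difference of 9.61 on the log2 scale. Kif2c, Kif4, Ncapg, Ska1 and Esco2 act on chromosomes and the spindle, and Mxd3 is a partner of Max. Non-cycling cells held under 1 CPM of each of these 10 genes in every library, at most 0.768 CPM (Mxd3). These genes thus passed the filter on low counts through the cycling cells, which the rule chose by mitotic genes. Their rises are a description, and nothing is read from their shared sign or size. Among 721 genes called lower with the same sign in every library (5.8%), the 10 largest had 0 or 1 UMI in the cycling cells of each wildtype library. The filter on low counts used the sum of all fibroblasts, nearly all of them non-cycling, so that such genes passed through their non-cycling level, and where under 1 UMI was expected a 0 fixed the sign. They are given as a description, as UMIs in cycling cells against those expected from the non-cycling level of the same libraries, and nothing is read from their shared sign. Comp, a cartilage matrix protein, had 35 UMIs against 216 expected, 6.18-fold lower (4.45 to 8.88), and the clotting factor gene F5 had 133 against 997, 7.5-fold lower (6.33 to 8.96), of which 63 and 69 lay in the tumours, at 12.4 against 93.7 and 6.28 against 46.1 CPM. Mlana had 3 against 56.2 (18.7-fold, 6.41 to 90.8), Pawr 13 against 93.4 (7.18-fold, 4.2 to 13.5) and Dach1 3 against 20.1 (6.7-fold, 2.29 to 32.5). Rtn4r (1 against 15.4, 2.76-fold to 607-fold) and Slc6a13 (1 against 13.6, 2.45-fold to 538-fold) rested on a single UMI, and C6 and S100g had 0 against 13.2 and 11.8, at least 4.39-fold and 3.93-fold lower with 3 UMIs taken as the limit over the 10 libraries. Klhl30 (9 against 72.8 expected) was lower by this count but had the opposite sign under DESeq2 (log2 difference 1.14), and Comp, Pawr and C6 kept the sign there but not the call.

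Over the 8 lists of fibroblast states more marker genes were lower in cycling cells than higher. Of 53 tested markers of 8 states, 28 were lower, 1 was higher and 24 did not pass, against 22.6% lower and 17.8% higher over all genes. Most of these states were described by the study on these same libraries, and the Pgr Cxcl13 list holds genes that led a cluster in earlier results of these data. The inflammatory and myofibroblastic names are general ones for fibroblasts of tumours. The lists are thus no independent evidence of a direction. In sums over cells, fewer cells of a state and less RNA per cell cannot be told apart. Nor can a smaller share of the RNA of deeper cells (1.23 to 2.74 times the median UMIs), since levels are scaled to a common total. Of the 29 calls, 14 held under every alternative, 11 were lost when non-cycling cells were matched to cycling cells on UMIs and 9 were lost when sums were scaled by library size alone. That scaling moved the median of all genes from -0.09 to 0.04 and the share of called genes that were higher from 44.0% to 61.8%.

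The progenitor markers were lower in 6 of 8 cases (22.6% of all genes), with a median log2 difference of -0.42. Pi16, a mark of universal fibroblast progenitors, stood at 41.7, 453 and 1850 CPM in cycling and at 174, 1070 and 1500 CPM in non-cycling cells (lowest, median, highest). It was lower in cycling cells in 9 of 10 libraries by -1.17 ± 0.31 (log2 difference ± SE, adjusted p = 0.0127), and involution was the exception with 1850 against 811 CPM; the call was lost against non-cycling cells matched on UMIs (-0.88). Ly6a, which encodes the stem cell antigen Sca-1, was lower by less but under every alternative (-0.37 ± 0.09, adjusted p = 0.00199). Of preadipocyte markers, Lpl (lipoprotein lipase) and Cebpa, a transcription factor of fat differentiation, were lower of 6 tested. Lpl stood at 190, 389 and 775 against 264, 712 and 1060 CPM and was lower in each of the 10 libraries, least at puberty (749 against 763 CPM) and most in involution (272 against 1060 CPM), by -0.82 ± 0.16 (adjusted p = 0.00115). Cebpa stood at 4.59, 8.99 and 20.5 against 8.39, 19.0 and 21.9 CPM. Fabp4, Cd36, Pparg and Plin2 did not pass, and the list had a median of -0.02.

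The ECM remodelling and lobular lists had the lowest medians of the 8. Over all genes 22.6% were lower. Of the ECM remodelling markers 4 of 7 were lower (median -1.05), with Pla2g7, a secreted phospholipase, at 0, 4.99 and 12.3 CPM in cycling cells and at 1.24, 18.3 and 38.5 CPM in non-cycling cells (-2.01 ± 0.24, adjusted p = 1.7e-06, on 112 UMIs in cycling cells). Of the lobular markers 4 of 7 were lower (median -1.13), among them Cilp, a matrix protein of cartilage, at 9.19, 193 and 469 against 202, 357 and 1000 CPM, and Fndc1 at 84.2, 241 and 691 against 179, 491 and 646 CPM. Their ranges overlapped between libraries, and the tests compare cells within a library. Of the adipogenesis-regulatory markers 5 of 7 were lower (median -0.65). Fmo2, a monooxygenase, stood at 0.91, 5.84 and 62.3 against 8.57, 58.3 and 79.2 CPM, and Apod, a lipid carrier, at 78.1, 305 and 1030 against 434, 688 and 1860 CPM. Both were lower in each of the 10 libraries, Fmo2 by -2.47 ± 0.36 (adjusted p = 0.000281) and Apod by -1.44 ± 0.25 (adjusted p = 0.00109).

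Of 3 markers of the Pgr Cxcl13 state, the chemokine Cxcl13 was lower, at 0, 5.69 and 21.8 against 0.534, 66.4 and 179 CPM (-2.68 ± 0.44, adjusted p = 0.000785). Non-cycling cells held more of it in each of the 10 libraries, and the lowest pair was tumour 2 with 0.182 against 0.534 CPM. The inflammatory list was mixed, with 4 of 7 lower and 1 higher (22.6% and 17.8% of all genes). The complement gene C3 stood at 173, 718 and 1370 against 196, 1310 and 1920 CPM (-0.9 ± 0.18, adjusted p = 0.00172). Ccl2, the monocyte chemokine, was the only state marker higher in cycling cells, with 220, 784 and 2910 against 120, 566 and 1390 CPM. It was higher in 9 of 10 libraries, by 0.8 ± 0.17 (adjusted p = 0.00234), and lost the call at 4 or more markers (0.64) and at a fibroblast marker floor of 100 (0.5). In placebo 2 a single cell held 56.1% of its 1418 UMIs, and in the tumours no cell held over 3.36%.

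Of 8 myofibroblastic markers 2 were lower and none higher over the 10 libraries (22.6% and 17.8% of all genes). None differed between tumour and wildtype libraries in the test of that difference. Wnt9a, a secreted Wnt ligand, was lower in each of the 10 libraries, at 0, 2.47 and 19.7 against 4.12, 8.8 and 48 CPM (-1.5 ± 0.19, adjusted p = 2.21e-06). Of its 310 UMIs in cycling cells 82 and 217 lay in the tumours, at 16.1 against 44.3 CPM and 19.7 against 48 CPM. Acta2, smooth muscle actin, went the other way in wildtype libraries, with 154 against 43.3 CPM at puberty, 325 against 22.8 and 160 against 42.2 CPM under placebo, and 187 against 24.3 and 104 against 48.6 CPM under MPA+E. It was 28.3 against 17.7 CPM in the adult, 11.3 against 2.43 in involution and 195 against 220 CPM in pregnancy, the 1 wildtype library in which it was lower. In the tumours it was high in both kinds of cell, at 211 against 229 and 757 against 689 CPM. The wildtype difference was 1.67 ± 0.47 (adjusted p = 0.0233) and that in tumours -0.01 ± 0.59 (adjusted p = 0.994), but the difference between both did not pass. The actin-binding Tagln (1.32 ± 0.43, adjusted p = 0.0403) and the matrix protein Tnc (1.76 ± 0.54, adjusted p = 0.0336) were higher in wildtype libraries as well. Of the 8 markers, 3 were thus higher and 2 lower in the wildtype term (17.1% and 20.9% of all genes), Wnt9a among those lower. Of 4 pericyte markers Cspg4 was higher in the same term (2.12 ± 0.27, adjusted p = 1.9e-06), Kcnj8 was lower (-2.56 ± 0.46), and Mcam (0.23 ± 0.7) and Notch3 (-0.1 ± 0.48) did not pass. The muscle marker Des was higher by 2.65 ± 0.86 (adjusted p = 0.0406), at 142 against 2.6 CPM in placebo 1, where Acta2 differed most, and at 0 against 3.94 CPM in placebo 2. The Des call was lost without the adult, involution, placebo 1, MPA+E 1 or either tumour (1.82 to 2.68), against cells matched on UMIs (1.45) or with 0 markers (2.7), at 4 or more markers (1.97), at a floor of 100 (2.44) and with at least 30 cycling cells (1.02). The part of such cells in these differences was not tested. The calls of Acta2, Tagln and Tnc were lost against non-cycling cells matched on UMIs (Acta2 0.43, Tagln 0.09, Tnc 1.25). Also lost were those of Acta2 (0.73) and Tagln (0.82) with at least 30 cycling cells, those of Tagln (1.03) and Tnc (1.2) under DESeq2, and that of Tagln at 4 or more markers (1.2) and at a floor of 100 (1.37). Acta2 lost the call without puberty, placebo 2 or MPA+E 1 (1.44 to 1.67). Tagln lost it without any of 7 libraries, both tumours, both placebo libraries, puberty, involution and MPA+E 1 among them (1.04 to 1.4), and Tnc without puberty, tumour 1 or either MPA+E library (1.24 to 1.7). A single cell of placebo 1 held 39.2% of its Acta2 and 56.2% of its Tagln UMIs.

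**Figure D3:**
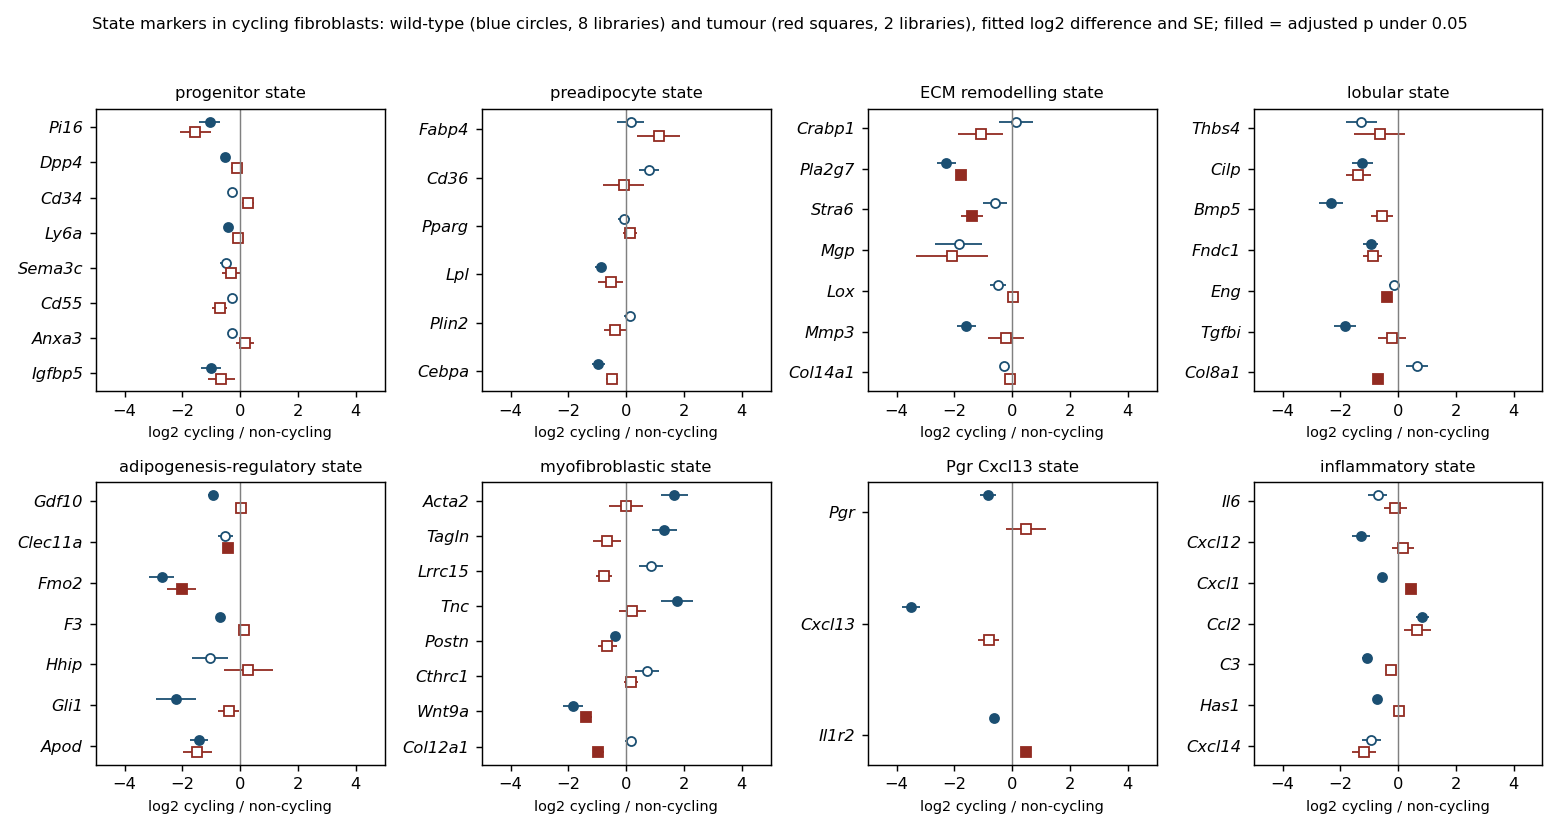
Fitted log2 difference of cycling against non-cycling cells with its SE for each tested marker of the 8 states (rows), in 8 wildtype libraries (blue circles) and 2 tumours (red squares); filled points had an adjusted p under 0.05 in edgeR. Fmo2, Pla2g7 and Wnt9a lie left of 0 in both, while Acta2, Tagln and Tnc lie right of 0 in wildtype libraries.

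By group, fewer state markers passed in the tumours than in wildtype libraries, which is not itself a test of a difference. In the test of the difference, the markers F3, Il1r2 and Cxcl1 were higher in the tumours relative to wildtype libraries (0.555% of all genes) and none was lower. These calls were lost without either tumour, for F3 and Cxcl1 also without puberty and for Cxcl1 without MPA+E 2, at 0.75 to 0.92 (F3), 0.85 to 1.37 (Il1r2) and 0.97 to 1.08 (Cxcl1). F3 lost it also against cells matched on UMIs (0.15), with library-size scaling (0.67), at 4 or more markers (0.75) and under DESeq2 (0.75). Il1r2 lost it at a floor of 100 (0.85) and under DESeq2 (1.0), and Cxcl1 against cells matched on UMIs (0.91) and with library-size scaling (0.82). In the wildtype term 26 of 53 markers were lower and 4 higher (20.9% and 17.1% of all genes, 38% in either direction), and in the tumour term 8 were lower and 2 higher (11.2% and 12.4%). Of the progenitor markers 4 were lower in wildtype libraries and 0 in the tumours, where edgeR gave adjusted p of 0.0997 for Pi16 with 419 against 850 CPM and 41.7 against 174 CPM. Of the Pgr Cxcl13 markers all 3 were lower in wildtype libraries, and in the tumours Il1r2 was higher. Pla2g7, Fmo2 and Wnt9a were lower in both terms, by -2.28, -2.72 and -1.83 in wildtype libraries and by -1.77, -2.03 and -1.38 in the tumours, where Fmo2 lost the call without tumour 2 (-1.35), at 2 or more markers (-2.09), against cells matched on UMIs (-1.61) and with at least 30 cycling cells (-2.02). Split further, 17 markers were lower and 0 higher over the stage libraries (12.4% and 11.2% of all genes), 26 lower and 7 higher under placebo (11.1% and 12.4%), and 5 lower and 3 higher under MPA+E (6.92% and 9.13%). Under placebo, with 18 and 16 cycling cells, 6 of 8 progenitor markers were lower. Of 8 myofibroblastic markers 5 were higher there, Acta2, Tagln, Lrrc15, Cthrc1 and Col12a1, and 1 was lower, Wnt9a. The cycling cells of placebo 1 had 2.74 times the median UMIs of its non-cycling cells. A single one of them held much of the Acta2 and Tagln UMIs, as given above. Over the 10 libraries Tagln (-0.21), Lrrc15 (-0.18) and Cthrc1 (-0.04) changed sign against non-cycling cells matched on UMIs.

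As a description per cell, each fibroblast was thinned to 2000 UMIs and given the state whose markers stood highest relative to their mean over all fibroblasts. Among 338 cycling cells of wildtype libraries the progenitor list led in 28.7%, the Pgr Cxcl13 list in 15.1%, the preadipocyte list in 14.5% and the myofibroblastic list in 12.4%. Among their non-cycling cells these were 24.2%, 15.6%, 11.4% and 6.07%. These pooled shares lean on puberty and pregnancy, with 99 and 80 of the cells, and the progenitor list led less often in cycling than in non-cycling cells at puberty (29.3% against 32.1%), in placebo 1 (16.7% against 24.1%) and in placebo 2 (6.25% against 19.8%). At puberty the preadipocyte list led in 25.2% of 99 cycling cells and in 10.7% of non-cycling cells, and in involution the progenitor list led in 45% of 20 cells against 18.1%. In tumour 1 the inflammatory list led in 38.1% of 252 cycling cells (22.9% of non-cycling cells) and the myofibroblastic list in 33.3% (31.3%). In tumour 2 the myofibroblastic list led in 70.6% of 371 cells (58.0%), the inflammatory list in 12.9% (13.5%) and the progenitor list in 0 (0.189%). The ECM remodelling list led less often in cycling than in non-cycling cells of both tumours, at 3.97% against 12.9% and at 2.7% against 12.7%. The list that led most cells was the same in cycling and non-cycling cells at puberty, in the adult, in pregnancy, in MPA+E 2 and in tumour 2, that is in 5 of 10 libraries, and each of the 8 lists led in some cycling cells of wildtype libraries. These shares carry no test, since cells of 1 library are not replicates.

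**Figure D4:**
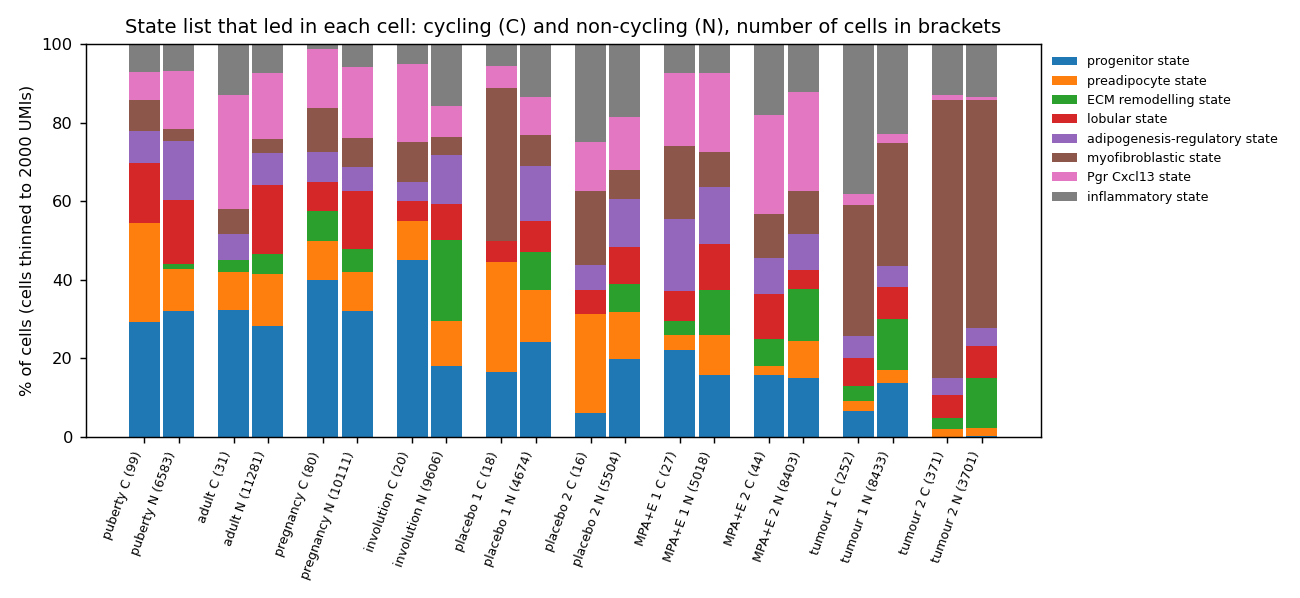
Share of cells (percent) led by each of the 8 state lists after thinning to 2000 UMIs, for cycling (C) and non-cycling (N) cells of 10 libraries, with the number of cells in brackets. Myofibroblastic markers lead in 70.6% of cycling cells of tumour 2, and progenitor markers in 45% of those of involution.

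The inhibitors of the cell cycle went both ways. Of 14 genes of the list of inhibitors and the p53 axis, 4 were higher and 6 lower in cycling cells (17.8% and 22.6% of all genes). Cdkn2c and Cdkn2d, the INK4 genes p18 and p19, were higher in each of the 10 libraries with ranges apart. Cdkn2c stood at 58, 130 and 209 against 9.72, 15.6 and 20.9 CPM (2.8 ± 0.27, adjusted p = 1.36e-05), and Cdkn2d at 59.1, 113 and 198 against 10.3, 11.6 and 23.2 CPM (2.8 ± 0.25, adjusted p = 6.57e-06). Rbl1, the retinoblastoma-like protein p107, stood at 17.2, 30 and 49.1 against 3.15, 3.95 and 5.81 CPM (2.72 ± 0.13, adjusted p = 2.12e-13), and Trp53 was higher by 0.54 ± 0.08. Cdkn1c (p57) was lower in 9 of 10 libraries, at 17, 54 and 121 against 42.6, 119 and 285 CPM (-1.29 ± 0.21, adjusted p = 0.00047), with puberty the exception at 95 against 91.4 CPM. The p53 targets Mdm2 (-0.46 ± 0.12) and Ccng1 (-0.56 ± 0.13) and the arrest gene Gas1 (-0.44 ± 0.11) were lower too, Mdm2 not with library-size scaling (-0.32) and Gas1 not with at least 30 cycling cells (-0.24).

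Cdkn1a (p21) was lower most in the tumours and under placebo. It stood at 192 against 597 CPM and at 111 against 431 CPM in the tumours, and at 127 against 304 and 330 against 757 CPM under placebo. Under MPA+E it stood at 284 against 234 and 464 against 498 CPM, and at puberty, in the adult, in pregnancy and in involution at 451 against 468, 447 against 574, 488 against 483 and 414 against 533 CPM. The tumour difference was -1.82 ± 0.14 (adjusted p = 8.26e-11) and the wildtype difference -0.56 ± 0.16 (adjusted p = 0.0156), lost under library-size scaling (-0.36) and at a fibroblast marker floor of 100 (-0.6). The difference between them did not pass (adjusted p = 0.105).

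Cdkn2a, the locus of p16 and p19ARF, and its neighbour Cdkn2b (p15) were measured well only in the tumours. Cycling cells there held 25.4 and 27.9 CPM of Cdkn2a (129 and 307 UMIs) and non-cycling cells 115 and 114 CPM. Cdkn2b stood at 18.7 against 73.4 CPM and at 34.8 against 114 CPM. Both tumours were thus alike, and each gene was lower in cycling cells by about the same amount, -2.11 ± 0.18 for Cdkn2a (adjusted p = 4.9e-07) and -1.83 ± 0.13 for Cdkn2b (adjusted p = 8.24e-12). The Cdkn2a call was lost under DESeq2 (-2.2). In wildtype libraries Cdkn2a stood at 0 to 8.65 CPM in cycling cells, from 18 UMIs in all, and at 0.105 to 2.96 CPM in non-cycling cells. The fitted difference there was 2.63 ± 0.59, in the opposite direction. It is a description, since the gene passed the filter on low counts through the tumours. Counts of UMIs per gene do not separate p16 from p19ARF, which share exons.

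**Figure D5:**
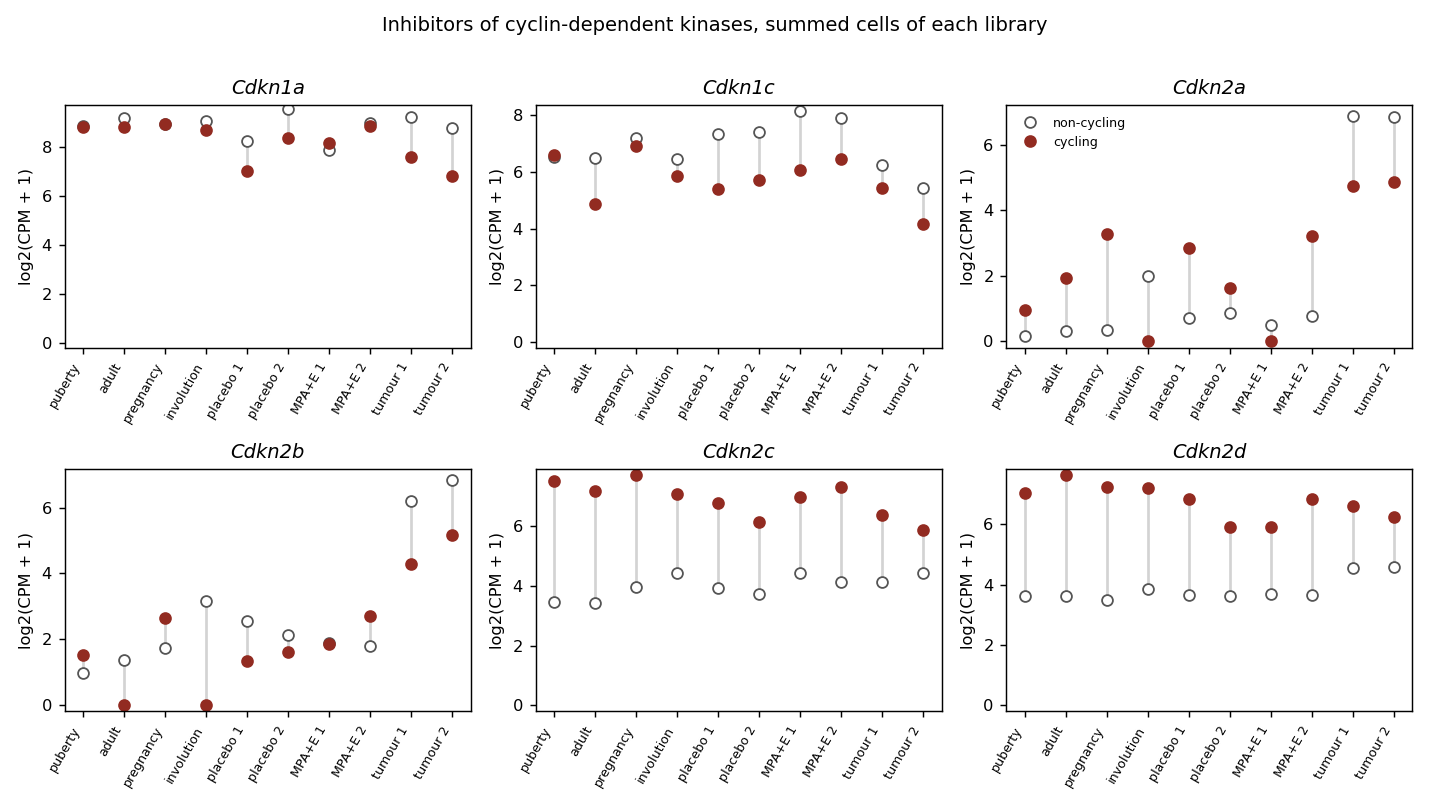
Levels of 6 inhibitors of cyclin-dependent kinases as log2(CPM + 1) in summed cycling (filled) and non-cycling (open) cells of each of the 10 libraries. Cdkn2c and Cdkn2d lie higher in cycling cells in every library, and Cdkn2a and Cdkn2b reach their highest levels in non-cycling cells of both tumours.

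Of cyclins D and their kinases, Cdk2 stood at 11.3, 22.5 and 35.5 against 4.44, 6.91 and 7.29 CPM (1.72 ± 0.16, adjusted p = 1.33e-08) and Cdk4 at 102, 177 and 266 against 57.8, 72.1 and 136 CPM (0.91 ± 0.1, adjusted p = 2.53e-07). Both were higher in each of the 10 libraries, as was Ccnd3 (0.31 ± 0.1, adjusted p = 0.0136), lost with no filter on low counts (0.24) and with at least 30 cycling cells (0.27). Ccnd2 was lower in 8 of 10 libraries, at 62.3, 135 and 230 against 141, 181 and 228 CPM (-0.65 ± 0.17, adjusted p = 0.00681).

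Of the list of receptors for growth factors and steroids, which also holds the ligand Igf1, 13 of 15 genes were lower and none higher (22.6% and 17.8% of all genes), with a median log2 difference of -0.52. Ghr, the growth hormone receptor, stood at 7.66, 25.6 and 46.1 against 39.7, 49.5 and 68 CPM and was lower in each of the 10 libraries (-1.08 ± 0.13, adjusted p = 8.73e-07). Fgfr1 (-0.62 ± 0.1) and Egfr (-0.6 ± 0.1) were lower in each library as well, and Tgfbr2 (-0.63 ± 0.11) in 9 of 10. The oestrogen receptor Esr1 stood at 9.19, 32.9 and 63 against 12.4, 60.5 and 79.9 CPM (-0.4 ± 0.14, adjusted p = 0.0245), a call lost without puberty, the adult or either placebo library (-0.38 to -0.29), with library-size scaling (-0.26), at a floor of 100 (-0.3), against cells matched on UMIs (-0.41) and with at least 30 cycling cells (-0.16). Pdgfra, the fibroblast receptor whose promoter drives the GFP of the raGFP-Wnt1 mice, was lower in each of the 8 wildtype libraries, from 146 against 200 CPM at puberty to 319 against 625 CPM in MPA+E 1 (-0.82 ± 0.09, adjusted p = 1.16e-07). In the tumours, which were sorted on that GFP, it stood at 192 against 170 and 125 against 115 CPM (0.12 ± 0.14, adjusted p = 0.581).

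Matrix genes were lower in part. Of the fibrillar list 8 of 18 were lower and none higher (22.6% and 17.8% of all genes). Elastin (Eln) stood at 73.5, 310 and 581 against 474, 721 and 1400 CPM (-1.55 ± 0.17, adjusted p = 1e-05) and the small proteoglycan Ogn at 186, 453 and 731 against 329, 1130 and 1310 CPM (-1.4 ± 0.16, adjusted p = 7.74e-06), each lower in 10 of 10 libraries. The main fibrillar collagens differed little, Col1a1 by -0.3 ± 0.1, lost without puberty (-0.25), and Col3a1 by -0.23 ± 0.09, lost without any 1 of 6 wildtype libraries (-0.24 to -0.18). Both were lost with library-size scaling (-0.14 and -0.07), at a floor of 100 (-0.21 and -0.15) and with at least 30 cycling cells (-0.22 and -0.17). Of the basement membrane list 8 of 11 were lower, with Lama2, a laminin chain, at 74.4, 178 and 250 against 157, 343 and 458 CPM (-1.12 ± 0.1, adjusted p = 1.68e-08). Of the ER folding and collagen secretion list 2 of 12 were lower, below the 22.6% of all genes, the chaperones Hspa5 (-0.55 ± 0.08) and Calr (-0.29 ± 0.09, lost with library-size scaling, -0.13). Of 9 tested Wnt genes 7 were lower, among them the antagonists Sfrp1 (-1.0 ± 0.22) and Dkk3 (-1.27 ± 0.16) and the ligands Wnt2 (-0.51 ± 0.11) and Wnt5a (-0.71 ± 0.14), and of 7 Hedgehog genes 2 were, a share near that of all genes.

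Immediate early genes, which respond within minutes to stimuli of many kinds, were lower in 11 of 12 cases (median -0.66). Over all genes 22.6% were lower and 17.8% higher. Junb stood at 807, 1310 and 1980 against 1370, 2270 and 3430 CPM (-1.02 ± 0.12) and Klf4 at 360, 1600 and 2110 against 675, 2620 and 4060 CPM (-1.02 ± 0.09), each lower in 10 of 10 libraries. Myc, also an early gene of growth, was lower in 9 of 10 libraries, at 55.3, 115 and 227 against 99.5, 176 and 339 CPM (-0.73 ± 0.14, adjusted p = 0.000457). It was the 1 gene of the ribosome biogenesis list that was lower, while 5 of 10 were higher, such as the nucleolar Nop56 (59.3, 86.8 and 125 against 28.3, 48.9 and 63.8 CPM; 0.74 ± 0.09) and Nme1 (0.86 ± 0.11). Of 9 glycolysis genes 5 were higher (17.8% of all genes) and 2 lower, the same share as the 22.6% of all genes. Gapdh stood at 374, 605 and 1270 against 180, 283 and 856 CPM (0.79 ± 0.09, adjusted p = 4.86e-07) and Pgk1 at 85, 148 and 359 against 48.6, 73.3 and 225 CPM (0.84 ± 0.09, adjusted p = 1.35e-07), while the hexokinase Hk2 stood at -0.88 ± 0.17, lost with at least 30 cycling cells (-0.69).

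Between MPA+E and placebo the cycling difference of 56 genes was higher under MPA+E and that of 23 was lower (0.45% and 0.185% of 12440 genes, 0.635% in either direction). Eln stood at 73.5 against 520 and 115 against 474 CPM under placebo and at 472 against 878 and 511 against 756 CPM under MPA+E. Its cycling cells lay further below the non-cycling cells in both placebo libraries than in either MPA+E library, a difference of 1.72 ± 0.23 between both log2 differences (adjusted p = 0.000232), a call lost at 2 or more markers (1.19) and at a fibroblast marker floor of 100 (1.89). Cdkn1a, with the values given above, differed by 1.33 ± 0.21 (adjusted p = 0.00166), a call lost at 4 or more markers (0.94) and against non-cycling cells matched on UMIs (1.07). Hsd11b1, which activates glucocorticoids, stood at 0 against 142 and 6.15 against 136 CPM under placebo and at 80.1 against 238 and 105 against 236 CPM under MPA+E (4.37), a call lost without placebo 1 (3.15) or MPA+E 2 (4.15), at 4 or more markers (3.83) and against cells matched on UMIs (3.41). In the other direction, Cthrc1 of the myofibroblastic list stood at 345 against 59.9 and 400 against 86.3 CPM under placebo and at 155 against 88.4 and 84.5 against 88.2 CPM under MPA+E (-1.94 ± 0.37, adjusted p = 0.0411), a call lost without the adult, either placebo library, MPA+E 2 or either tumour (-2.13 to -1.56). It was also lost against non-cycling cells matched on UMIs (-0.32), with doublets removed (-1.89), at 2 or 4 markers (-2.01 and -2.35) and at a fibroblast marker floor of 100 (-1.99). Tnfrsf11b (osteoprotegerin) stood at 136 against 9.78 and 59.4 against 4.97 CPM under placebo and at 7.88 against 2.68 and 0 against 1.91 CPM under MPA+E (-2.93), lost without placebo 1 (-2.74) or MPA+E 2 (-2.18), at 4 or more markers (-1.52), at a floor of 100 (-1.51) and against cells matched on UMIs (-1.94). Against non-cycling cells matched on UMIs, 6 genes were called higher and 0 lower, with 466 and 341 at an unadjusted p under 0.05 in edgeR. DESeq2 on all cells called 63 and 23. Fewer genes were called without placebo 1 and also without MPA+E 2, and the cause was not tested.

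Between tumour and wildtype libraries the cycling difference of 69 genes was higher and that of 116 lower in the tumours (0.555% and 0.932%, 1.49% in either direction). Cdkn2a had the largest fall among the named genes, with the values given above (-4.74 ± 0.71). It lay near the floor in wildtype libraries and passed the filter on low counts through the tumours, as did Psrc1, Frzb, Mmp9 and Glipr1. The differences of these genes are a description, and nothing is read from their calls. Pdgfra differed by 0.94 ± 0.19 (adjusted p = 0.0108), Myc by 0.96 ± 0.2 (adjusted p = 0.0153) and Hk2 by 1.13 ± 0.22 (adjusted p = 0.00859). Without tumour 1 or tumour 2 these calls were lost at a like size (Pdgfra 0.94 and 0.98, Myc 1.05 and 0.91, Hk2 1.21 and 1.08). Cspg4, which encodes NG2 and is used as a pericyte marker, stood at 5.67 to 48.1 CPM in cycling against 2.61 to 4.51 CPM in non-cycling cells of wildtype libraries, and at 12.8 against 20.4 and 13.2 against 14.3 CPM in the tumours (-2.52 ± 0.38, adjusted p = 0.00121; lost without tumour 1, -2.23, or tumour 2, -2.81). In wildtype libraries alone, where its difference is given above, Cspg4 was higher in 8 of 8 libraries and under every alternative, on 1 UMI in involution to 17 in the adult. With either tumour left out fewer genes were called. Without tumour 1 and without tumour 2, Cdkn2a stood at -4.65 and -4.82 and Psrc1 at -5.15 and -3.9. Frzb (-4.22), Mmp9 (-4.49) and Glipr1 (-4.41) have values without tumour 1 only, since without tumour 2 they did not pass the filter on low counts.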

How the data were processed

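The authors deposited UMI counts for 32285 genes per barcode, filtered matrices from Cell Ranger 6.1.2 on 10x 3′ libraries, with mm10 named in the submitters' processing notes and the annotation release not given in the sources used here. The 13 libraries held 56551189 to 112550204 UMIs each. From these counts, fibroblasts and cycling cells were chosen by the stated rule in Python 3.11.15. Doublets were scored with Scrublet (scanpy 1.11.5) and kept, except in an alternative that removed the highest scores at 0.8% per 1000 barcodes. Counts were summed per library over cycling and over non-cycling cells where at least 10 cells were cycling, and tested in edgeR 4.0.16 (R 4.3.3; TMM, quasi-likelihood test, library as a term, genes with at least 1 CPM in the sum of all fibroblasts, averaged over libraries, Benjamini-Hochberg adjusted p under 0.05). Group terms and their differences came from the same 10 libraries. Each wildtype library pooled 2 females, and p-values measure the spread between libraries. The stages had 1 library each and were joined in 1 term, and the wildtype term joined them with placebo and MPA+E. Differences between such conditions thus enter the spread, also for the comparison of MPA+E with placebo, which came from a fit with the joined stages. Shares were compared with an exact permutation test, and intervals are exact 95% intervals that cover counting error only. DESeq2 1.42.0, other marker numbers, limits, scalings and cells, and leaving out each library were the alternatives. The fit was tested on simulated data for 12440 genes: of genes made to differ by 1 and -1 on the log2 scale it called 92% and 76%, by 2 and -2 100% and 96%, and 3.96% of its calls were false. For the difference between tumour and wildtype libraries it called 76% and 60% of genes made to differ by 2 and -2, and 5.56% of its calls were false. The simulated counts had a single spread for all genes and few changed genes, whereas 40.4% of genes were called in the data. These rates thus hold for such counts and do not give the share of false calls in the data. Placebo and MPA+E libraries with the same number did not deviate together (r = 0.0134 over 12440 genes). Hyperplasia and tumour of 1 number came from the same mouse, per the study's methods. Named were the genes of fixed lists and, outside the lists of the cell cycle, up to 10 with the largest called difference in each direction that had the same sign in every library, and 5 per direction for differences between groups, leaving out mitochondrial and ribosomal protein genes and unnamed gene models. The values of 1 listed gene are not reported here. The cells, lists and tests were chosen with earlier results of these data known. The comparison of tumour with wildtype libraries was added after the data were seen.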

Additional observations from a re-analysis of the deposited data

Results flagged for a closer look

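Between MPA+E and placebo, the test of the difference itself called 56 genes higher and 23 lower in their cycling difference. The largest among those higher under MPA+E were Adamtsl3 (4.52 on the log2 scale), Hsd11b1 (4.37), Alcam (3.77), Il33 (3.34) and E2f7 (3.0), and those lower were Prss35 (-5.35), Sorcs2 (-4.76), Oas3 (-3.26), Cdc42ep3 (-3.23) and Tnfrsf11b (-2.93). E2f7, a repressor of the S phase programme, was higher under MPA+E in cycling cells (19.9 and 18.4 CPM under placebo, 28.9 and 31.4 CPM under MPA+E). In non-cycling cells it was lower under MPA+E (5.0 and 4.97 CPM under placebo, 0.812 and 1.17 CPM under MPA+E). Il33 stood at 95.4 and 88.3 CPM in non-cycling cells under placebo and at 26.6 and 29.5 CPM under MPA+E, and in cycling cells at 1.53 and 4.1 CPM in the placebo libraries against 6.57 and 9.55 CPM with MPA+E. Among the listed genes higher were Eln (1.72), Cdkn1a (1.33), Eng (1.49), Ogn (1.16), Col14a1 (1.13), Has1 (0.88), Atf3 (0.95), Junb (0.85) and Egr1 (0.73), and Cthrc1 (-1.94) was lower. Each of the 10 largest lost the call against non-cycling cells matched on UMIs and without placebo 1, where those higher stood at 2.68 to 3.52 and those lower at -4.43 to -2.74. Adamtsl3 (3.52), Prss35 (-5.2) and Sorcs2 (-2.96) lost it also without MPA+E 1, and Hsd11b1 (4.15), Prss35 (-5.51) and Tnfrsf11b (-2.18) without MPA+E 2. Il33 lost it in 15 of 21 alternatives, without any of 7 libraries among them (2.68 to 4.14), Alcam in 12 of 20 with 8 libraries (3.52 to 3.98) and Cdc42ep3 in 15 of 20 with 8 libraries (-3.54 to -2.83). Of the listed genes Eln and Cdkn1a kept the call with any 1 library left out. It was lost without either of 2 libraries for Ogn (0.88 to 0.98), any of 4 for Eng (1.45 to 1.54), Col14a1 (0.8 to 1.13), Atf3 (0.86 to 1.04) and Junb (0.58 to 0.85), any of 5 for Egr1 (0.54 to 0.83) and any of 6 for Has1 (0.62 to 0.88) and Cthrc1 (-2.13 to -1.56). Prss35 rested on 19 UMIs of placebo 1 and 2 of placebo 2, and Alcam on 1 UMI in each placebo library. Cycling cells of placebo 1 and 2 held 0 and 2 UMIs of Adamtsl3, 0 and 3 of Hsd11b1 and 1 and 2 of Il33. Those of MPA+E 1 and 2 held 1 and 1 UMIs of Prss35, 0 and 1 of Sorcs2, 2 and 1 of Cdc42ep3 and 6 and 0 of Tnfrsf11b.

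Between tumour and wildtype libraries the same kind of test called 69 genes higher and 116 lower. The largest were Epyc (9.87), Il18r1 (3.35), Nmb (2.77), Polr1b (2.69) and Aox3 (2.63), and Cdkn2a (-4.74), Psrc1 (-4.57), Frzb (-4.46), Mmp9 (-4.32) and Glipr1 (-4.28). Those lower passed the filter on low counts through the tumours, and nothing is read from their calls. Mmp9 and Glipr1 lost the call against cells matched on UMIs (-2.01 and -1.58) and changed sign with at least 30 cycling cells (5.13 and 2.62), and their UMIs in cycling cells of wildtype libraries lay in placebo 1, placebo 2 and MPA+E 1 alone, 8, 5 and 7 for Mmp9 and 2, 4 and 6 for Glipr1. The fitted value of Epyc is no bound, since its cycling cells held 0 UMIs in all 8 wildtype libraries, against 82 and 17 in the tumours. Psrc1, a spindle protein, stood at 5.65 to 25.4 CPM in cycling cells of every library but at 12.6 and 15.6 CPM in non-cycling cells of the tumours, against 0.378 to 1.17 CPM in those of wildtype libraries. Without either tumour the calls of Epyc (9.73 to 10.04), Nmb (2.64 to 2.9) and Polr1b (2.67 to 2.74) were lost, Aox3 lost it without any of 8 libraries (2.32 to 2.99), Il18r1 without any of 5 (1.92 to 3.58) and Glipr1 without MPA+E 1 (-3.3). Of the listed genes, Pttg1 (2.12), Pdgfra (0.94), Myc (0.96), Hk2 (1.13), F3 (0.84), Il1r2 (1.1), Cxcl1 (1.0) and P4ha1 (0.76) were higher and Cspg4 (-2.52) was lower. Of the lists of the cell cycle, Mcm7 (-1.0), Rrm1 (-1.39), Rrm2 (-1.74), Tyms (-1.18), Ung (-2.12), Gins2 (-1.05), Ccne1 (-1.63), Uhrf1 (-2.09), Tk1 (-2.39), Dut (-0.84), Bub1 (-2.81), Ckap2 (-1.71), Cdca8 (-1.04), Incenp (-0.94) and Tubb5 (-0.7) were lower as well, each lost without at least 1 of the tumours. Among the others Pttg1 kept the call with any 1 library left out, and the calls of Pdgfra, Myc, Hk2, F3, Il1r2, Cxcl1, P4ha1 and Cspg4 were lost without either tumour. Genotype, strain, age and sort differ between these groups as well and cannot be told apart from the tumour. Non-cycling cells of the tumours also held the rule gene Cdk1 more often, as given above, and the part of such cells was not tested.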

How the results depend on the processing

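Of 177 called gene results 85 kept direction and call under every alternative, 91 lost the call under at least 1 and 4 changed sign, and of 33 that had not passed 17 passed under at least 1 alternative and 11 changed sign. The shares of cycling cells kept their direction throughout: the log2 difference of tumour against hyperplasia was at least 5.33 to 6.95 (5.83 to 7.46 with 1 library left out), lower bounds with hyperplasia 2 set to 3 cells except without that library (6.24), that of MPA+E against placebo 0.43 to 0.97 (0.47 to 0.89; libraries overlapped at 4000 UMIs, exact permutation p = 0.667), and the ratio of puberty to lactation 24.7 to 49.4. The gene comparison of tumour with hyperplasia was not run under any setting, since hyperplasia had 4 and 0 cycling cells.

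Library-size scaling left 1821 genes lower in cycling cells, and with 1 library left out 1948 to 2175 were higher and 2528 to 2721 lower. For MPA+E minus placebo the counts higher and lower were 25 and 6 at 4 or more markers, 6 and 0 against non-cycling cells matched on UMIs, and 171 and 69 with no filter on low counts, and 37 were higher with library-size scaling. With 1 library left out they ran from 18 to 86 and from 10 to 43, lowest without placebo 1 and highest without involution, and moved by over 1.5 times also without pregnancy (34 higher), MPA+E 2 (25 and 11) and, among those lower, tumour 1 (15) and tumour 2 (14). The replicate number of these libraries marks no shared animal and is not shown to pair them; with the replicate block 78 were higher and 38 lower. With at least 30 cycling cells asked for, the placebo libraries dropped out and this comparison gave no value.

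For tumour minus wildtype libraries the count higher was 104 at 2 or more markers, 130 at 4 or more and 45 at a fibroblast marker floor of 100. The counts higher and lower were 28 and 242 with library-size scaling, 222 and 349 with no filter, 299 and 263 with at least 30 cycling cells, and from 2 to 110 and from 5 to 149 with 1 library left out, lowest without tumour 2 and, among those higher, highest without placebo 1. The causes of these moves were not tested.

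The following log2 differences changed sign. Against cells matched on UMIs these were Fabp4 (-0.14), F3 (0.05), Tagln (-0.21), Cthrc1 (-0.04), Col8a1 (-0.09), Lrrc15 (-0.18) and, in the tumours, Tnc (-0.04). At 4 or more markers they were Col8a1 (-0.12) and Lrrc15 (-0.12), and with at least 30 cycling cells Col8a1 (-0.49), Lrrc15 (-0.57), Crabp1 (0.03), Plin2 (0.17), Acta2 in the tumours (0.0) and, for tumour minus wildtype, Mmp9 (5.13) and Glipr1 (2.62). With library-size scaling they were Pparg (0.11), Plin2 (0.15), Col12a1 (0.01) and Acta2 in the tumours (0.01). Plin2 also did at 2 or more markers (0.01), at a floor of 100 (0.08) and with 1 library left out (-0.11 to 0.09), Pparg with doublets removed (0.02) and with 1 library left out (-0.14 to 0.03), Col8a1 with 1 library left out (-0.01, without placebo 2, to 0.4), Acta2 in the tumours at 2 or more markers (0.15), against cells with 0 markers (0.09) and with 1 tumour left out (-0.13 to 0.13), and Klhl30 under DESeq2 (1.14). Of these, F3, Klhl30, Mmp9 and Glipr1 had been called.

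The 8 wildtype libraries held 16 to 102 cycling cells each, so that genes of low level rested on few UMIs there.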
